A study of Mus musculus with 8 samples.

Results

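The 10 genes described here, Cdh5, Kdr, Flt1, Tek, Tie1, Emcn, Esam, Cldn5, Egfl7 and Eng, give endothelial cells, the lining of blood vessels, their identity. They were taken by name, and every CpG position of the deposited table inside their RefSeq spans or within 5 kb of either side was used: 13371 of 32984740 positions on chromosomes 1 to 19 and X, and 10 of 21501 protein-coding genes. Their CpG methylation was read in resting muscle stem cells by whole-genome bisulfite sequencing, in which only methylated cytosines stay cytosines. The libraries came from male C57BL/6 mice, 4 of them old (22 months) and 4 young (4 months), with a separate animal for each. The cells were sorted from limb muscle as VCAM positive and negative for CD45, CD31 and Sca1. CD31, the product of Pecam1, is carried by endothelial cells, so the sort was set to leave these out. At each position the table gives a methylation level and a dispersion for each age group, with the authors' p-value and FDR for old against young. Neither single animals nor read counts are listed. Every level here is therefore a mean over positions of the authors' group values, given with no SD, and the depth behind a position is unknown. A level averages over all cells, so a change in the cells and a change in the share of another cell type cannot be told apart.

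In vessels, VEGF ligands act through the receptor tyrosine kinase encoded by Kdr, while the product of Flt1 binds VEGF tightly and holds back its signal. Tek encodes the receptor of the angiopoietins and Tie1 its partner receptor, Eng a co-receptor of the BMP and TGF-beta family, Cdh5, Cldn5 and Esam the adhesion proteins of endothelial junctions, Emcn a sialomucin of the vessel surface, and Egfl7 a secreted factor of the vessel wall. CpG-rich gene starts are usually unmethylated in all tissues whether or not the gene is used, whereas CpG-poor starts tend to be methylated where the gene is not used.

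The VEGF receptor genes lie at chr5:75932827-75979072 (Kdr) and chr5:147561604-147726438 (Flt1), and the Tie receptor genes at chr4:94739086-94874976 (Tek) and chr4:118471191-118489849 (Tie1), in GRCm38.p6. Eng lies at chr2:32646595-32682669, Cdh5 at chr8:104101613-104144504, Cldn5 at chr16:18776847-18778262, Esam at chr9:37528089-37538319, Emcn at chr3:137341062-137431069 and Egfl7 at chr2:26581083-26592682. The gene table used gives spans and no exons, so exons and introns were not told apart.

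The RefSeq promoter table (GRCm38.p6, whose chromosomes are those of mm10) held 10 starts of 8 of these genes, from 250 bases before to 50 bases after each start; it has no entry for Cdh5 and Esam. The 6 shown cover several of the states found at these 10 starts in muscle stem cells. They are a CpG-rich unmethylated start (Kdr), a CpG-poor start with little methylation (Tek) and a CpG-poor methylated start (Emcn). With them are a methylated start of middling CpG number (Cldn5) and the first and the last of the 3 listed starts of Egfl7, which differ from each other. The intermediate start of Eng is not shown. Sequences run 5′ to 3′ in the sense of the gene, and capitals mark the CpGs.
Kdr, chr5:75978406-75978705, minus strand: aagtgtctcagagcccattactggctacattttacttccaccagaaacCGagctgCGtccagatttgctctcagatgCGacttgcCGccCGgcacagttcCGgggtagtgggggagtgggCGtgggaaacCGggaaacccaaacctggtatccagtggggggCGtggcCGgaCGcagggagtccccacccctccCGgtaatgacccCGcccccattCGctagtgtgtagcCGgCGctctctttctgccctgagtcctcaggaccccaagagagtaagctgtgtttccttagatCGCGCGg
Tek, chr4:94739039-94739338, plus strand: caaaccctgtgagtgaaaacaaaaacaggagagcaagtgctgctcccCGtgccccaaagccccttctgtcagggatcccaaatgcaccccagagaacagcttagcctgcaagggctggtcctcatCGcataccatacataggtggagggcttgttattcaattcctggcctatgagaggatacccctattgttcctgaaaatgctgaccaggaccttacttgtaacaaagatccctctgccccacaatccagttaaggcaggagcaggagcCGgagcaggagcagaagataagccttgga
Emcn, chr3:137340828-137341127, plus strand: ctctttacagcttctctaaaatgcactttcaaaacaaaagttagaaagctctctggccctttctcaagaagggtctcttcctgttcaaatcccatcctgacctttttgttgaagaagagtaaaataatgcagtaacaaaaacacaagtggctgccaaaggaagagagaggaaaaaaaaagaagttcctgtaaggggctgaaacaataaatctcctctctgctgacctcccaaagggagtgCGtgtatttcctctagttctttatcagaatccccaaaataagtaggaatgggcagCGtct
Cldn5, chr16:18776597-18776896, plus strand: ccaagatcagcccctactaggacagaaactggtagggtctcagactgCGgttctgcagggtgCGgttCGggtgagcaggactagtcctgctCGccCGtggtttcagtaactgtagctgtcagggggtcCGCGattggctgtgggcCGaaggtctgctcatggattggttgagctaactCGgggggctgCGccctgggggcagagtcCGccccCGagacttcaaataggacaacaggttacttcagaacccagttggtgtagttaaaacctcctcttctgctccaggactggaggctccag
Egfl7 first start, chr2:26580833-26581132, plus strand: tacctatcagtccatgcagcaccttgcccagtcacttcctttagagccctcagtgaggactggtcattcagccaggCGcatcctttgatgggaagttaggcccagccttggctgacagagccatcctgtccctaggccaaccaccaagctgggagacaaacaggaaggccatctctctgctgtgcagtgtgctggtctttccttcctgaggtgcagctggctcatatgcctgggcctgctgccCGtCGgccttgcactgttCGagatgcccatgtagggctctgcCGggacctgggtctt
Egfl7 last start, chr2:26586386-26586685, plus strand: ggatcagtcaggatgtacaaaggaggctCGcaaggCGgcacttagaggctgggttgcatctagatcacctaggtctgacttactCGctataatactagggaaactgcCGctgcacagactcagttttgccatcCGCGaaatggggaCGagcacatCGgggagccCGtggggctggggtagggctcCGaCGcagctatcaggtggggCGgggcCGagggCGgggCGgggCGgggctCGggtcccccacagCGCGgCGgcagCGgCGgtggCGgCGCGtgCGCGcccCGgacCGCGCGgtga

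The starts of both VEGF receptor genes were nearly free of methylation at either age. The 19 CpGs of the Kdr promoter stood between 2.57% and 4.14% in old and between 2.59% and 4.38% in young cells. The 29 CpGs of the Flt1 promoter stood between 2.84% and 3.44% in old and between 2.85% and 3.34% in young cells. The ranges of both ages overlapped, and 0 of the 19 Kdr CpGs and 22 of the 29 Flt1 CpGs were higher in old cells. Neighbouring CpGs often carry the same deposited level, so counts of CpGs, here and below, are not counts of independent values. Such a state is common: of 448 promoters with 19 CpGs, 98.7% had a mean of both ages under 20%, and of 365 promoters with 29 CpGs, 98.1% had.

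Tek, the angiopoietin receptor gene, had little methylation at a start with only 3 CpGs. They stood at 9.60%, 12.4% and 12.7% in old and at 8.33%, 11.1% and 9.85% in young cells. Of 1116 promoters with 3 CpGs, 7.44% were lower than Tek, and the median of these promoters was 61.9% in old and 60.8% in young cells. The Emcn promoter, with 2 CpGs, was methylated, at 66.1% and 64.2% in old and at 71.0% and 67.4% in young cells. Its level lay near the middle of its class, since 60.6% of the 1155 promoters with 2 CpGs were lower. Tie1, the partner receptor, had 7 CpGs between 61.2% and 66.3% in old and between 56.2% and 61.3% in young cells. The Tie1 promoter had 72.8% of the 589 promoters with 7 CpGs below it.

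Cldn5, which encodes the sealing claudin of endothelial tight junctions, combined a methylated start with an unmethylated gene. All 12 CpGs of its promoter were higher in old cells, at 64.9% to 73.9% against 60.8% to 68.5% in young cells, with a smallest p of 0.38 in the authors' deposited table. Of 402 promoters with 12 CpGs, 94.8% were lower, and the median of these promoters was 3.90% in old and 3.95% in young cells. From 325 to 1207 bp past the start, inside the gene, 148 positions averaged 7.23% in old and 7.15% in young cells.

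Egfl7 was methylated at its first and second listed starts and nearly free of methylation at its last. Its first start stood at 69.6% in old and 62.3% in young cells over 5 CpGs, and its second at 65.9% and 60.9% over 8 CpGs, with all CpGs of both higher in old cells. The last start, with 31 CpGs, stood at 3.14% in old and 3.16% in young cells. The smallest p over the 3 promoters was 0.141 in the authors' deposited table. The microRNA gene Mir126a lies further into Egfl7 and is known for its high level in endothelial cells; its 3p product is shown with its seed, bases 2 to 8, in capitals.
mmu-miR-126a-3p, chr2:26591402-26591423, plus strand: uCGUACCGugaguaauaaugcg
Within 500 bp of its hairpin 50 positions averaged 50.2% in old and 49.9% in young cells.

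The Eng promoter was intermediate. Its 6 CpGs stood between 21.7% and 41.8% in old and between 21.3% and 36.4% in young cells, lowest at 69 bp before the start and highest after it. Mean phi there was 0.0869 in old and 0.0778 in young cells, and in the promoter of the second Egfl7 start 0.0894 and 0.0582. In the other 8 promoters it lay between 0.0412 and 0.0623 in old and between 0.0417 and 0.0565 in young cells. Within 1 kb of the Eng start, mean phi was 0.0623 in old and 0.0615 in young cells, against medians over the same windows of all genes of 0.0460 and 0.0463. Phi is the authors' dispersion of an age group, read here as a measure of spread. The sources used here do not define it.

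**Figure D1:**
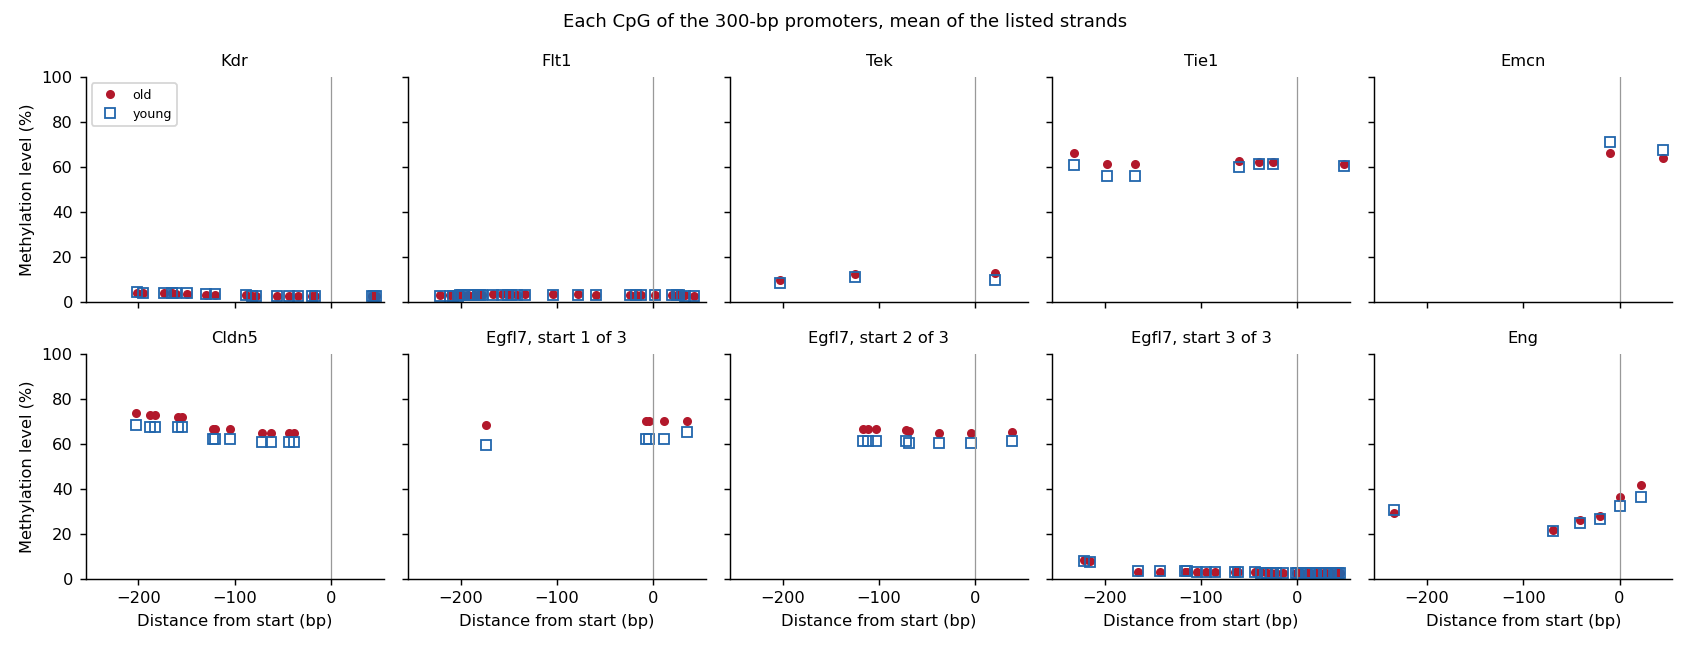
Methylation level in percent of each CpG of the 10 promoters (y axis) by distance from the start in bp (x axis), filled circles for old and open squares for young cells, each 1 group value averaged over the listed strands. The CpGs of Kdr, Flt1 and the last Egfl7 start lie under 10%, those of Tek between 8.33% and 12.7%, and those of Tie1, Emcn, Cldn5 and the first 2 Egfl7 starts over 56%.

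Motif letters were counted in the same 10 promoters on both strands. GGAA, the core recognised by ETS factors, which drive many endothelial genes, was present in 9 of 10, all but Cldn5, and in 95.7% of all 21045 promoters of protein-coding genes. The highest count was 9 in Tie1 and the median over all promoters was 3. CGGAAG, an ETS site that contains a CpG, was present in 1 of 10 (Tie1) and in 21.3% of all promoters. Every CGGAAG also counts as a GGAA.

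Over 1 kb on each side of the start end, the 10 genes ranged from unmethylated to methylated, and none was called between the ages by the test. The start end is the end of the RefSeq span where transcription begins; for Cdh5 and Esam, whose strand the table does not give, the end with the lower level was used, which need not be the start. Kdr stood at 12% in old and 12.7% in young cells, Flt1 at 3.60% and 3.57%, and Tek at 15.9% and 13.9%. Tie1 stood at 73.2% in old and 70.4% in young cells, Emcn at 67.9% and 68.6%, and Egfl7 at 67.8% and 66.0%. Between them lay Eng at 52.1% in old and 48.1% in young cells, Cdh5 at 54.2% and 52.0%, Esam at 29.9% and 29.3%, and Cldn5 at 29.6% and 27.6%. The opposite end stood at 71.6% in old and 70.1% in young cells in Cdh5, and at 65.9% and 63.7% in Esam. The place of both genes in this order therefore depends on which end is the start. Thus 3 of 10 had a mean of both ages under 20%, whereas 57.5% of all genes had.

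Of the 10 start windows, 8 were higher in old cells, with a median difference of 1.84 percentage points, beside 46.8% of all genes and a median of -0.0436 points. The size of this share goes with level: of all genes with a start window of at least 20%, 56.5% were higher in old cells, and of those under 20%, 39.7% were. Of the 7 endothelial genes at 20% or more, 6 were higher in old cells, all but Emcn. The largest difference was that of Eng, 3.94 points, above 93.9% of all genes. In Eng it was 5.13 points within 500 bp and 1.78 points within 2000 bp. Within 2000 bp the less methylated end of Cdh5 (2.47 points) and Tie1 (2.45 points) were above Eng. The p of a window was the median of the authors' p-values over its positions, multiplied by 2, with Benjamini-Hochberg adjustment over all genes; 0 of 10 start windows were called, beside 0% of 19852 start windows, and all 10 had an adjusted p of 1. The test asks that most of a window shifts and its power in these data is not known. Before adjustment, only 5 of the 19852 start windows of all genes had a p under 0.05 by this test. The smallest over all windows of the 10 genes was 0.639. The test thus calls hardly any window in these data, and 0 calls, here and below, do not show that a window is unchanged.

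**Figure D2:**
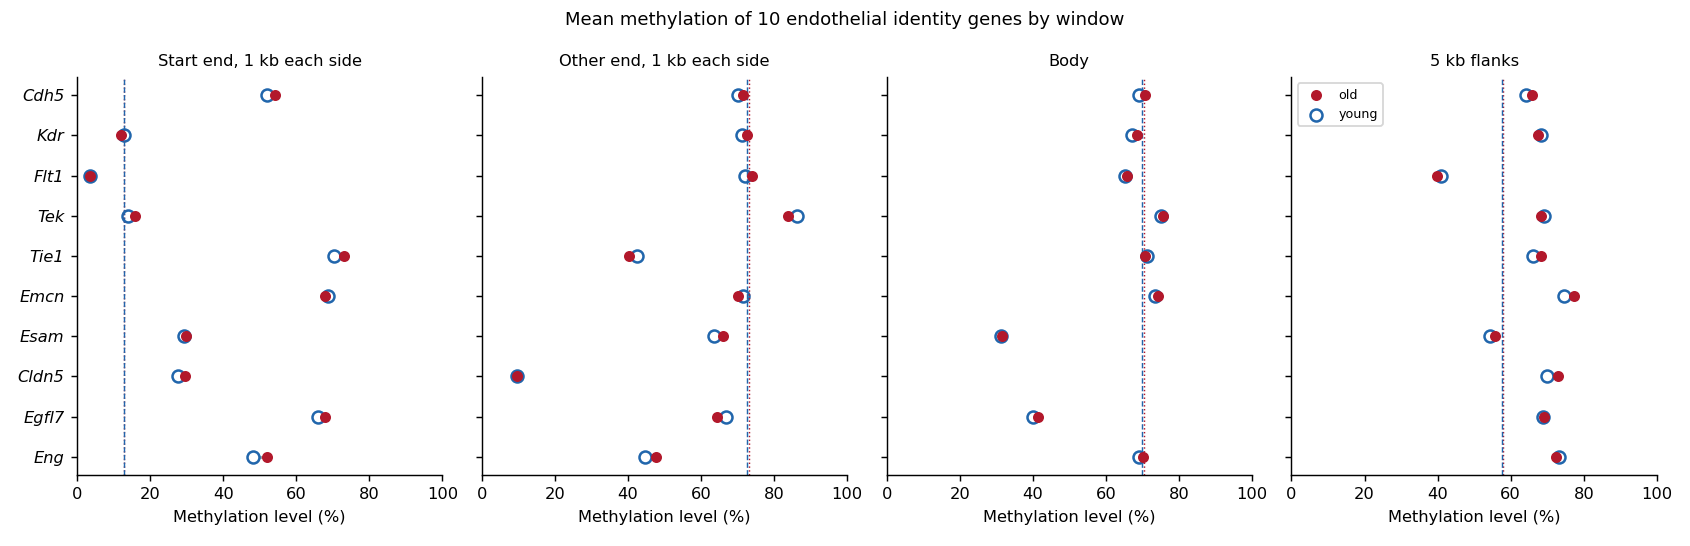
Methylation level in percent (x axis) of the 10 genes (rows) at the start end, the other end, the body and the 5 kb flanks, filled circles for old and open circles for young cells, each a mean over positions of 1 group value. Dotted and dashed lines mark the median of all protein-coding genes in old and young cells. Cldn5 is too short for a body window.

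The other ends were mostly methylated in both ages. Of 10, 7 had a mean over 60%, with Tek highest at 83.7% in old and 86.4% in young cells. The difference in Tek was -2.62 points, and -9.72 points within 500 bp of that end. Cldn5 was the lowest, at 9.58% in old and 9.62% in young cells, in a window that covers most of this short gene. Tie1 stood at 40.3% in old and 42.5% in young cells, and Eng at 47.7% and 44.8%. Of these windows 5 were higher and 5 lower in old cells, beside 58% higher over all genes, and 0 of 10 were called, beside 0% of 18961. Dispersion was widest at the other end of Eng, with a mean phi of 0.0776 in old and 0.0871 in young cells.

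Along the body, without 1 kb at each end, 7 of 9 genes stood over 60%. Tek was the highest at 75.6% in old and 75.0% in young cells, followed by Emcn at 74.4% and 73.4%. Esam, at 31.5% in old and 31.3% in young cells, and Egfl7, at 41.3% and 40.1%, were the lowest. Of 9 bodies 8 were higher in old cells, by 0.194 points in Esam to 1.42 points in Cdh5, beside 73.3% of all genes. Tie1 was the exception, at 70.8% in old and 71.4% in young cells. None was called, beside 0% of 18442 bodies. Mean phi in the bodies lay between 0.0464 and 0.0542 in old and between 0.0460 and 0.0537 in young cells.

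In the flanks of 5 kb, 6 of 10 genes were higher in old cells, beside 61.1% of all genes, and none was called, beside 0% of 21312. Cldn5, at 73.0% in old and 70.0% in young cells, and Emcn, at 77.2% and 74.5%, had the largest differences. Without the 1 kb next to the span the difference was 1.48 points in Cldn5 and 3.35 points in Emcn. Flt1 had the least methylated flanks, at 39.8% in old and 41.0% in young cells, and the low stretch at its start extends into them. The flanks of Tek, Esam, Cldn5, Egfl7 and Eng also overlap neighbouring protein-coding genes (Eqtn; Msantd2 and Vsig2; Cdc45; Agpat2; Fpgs). Over span and flanks together 9 of 10 genes were higher in old cells, beside 73.8% of all genes, with a median difference of 0.952 points against 0.382 points over all genes. Cldn5 had the largest difference there, 1.57 points, and Tie1 the only lower value in old cells, by -0.0782 points. Over all 13371 positions the level was 64.2% in old and 63.5% in young cells, and over the genome 64.6% and 64.1%.

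**Figure D3:**
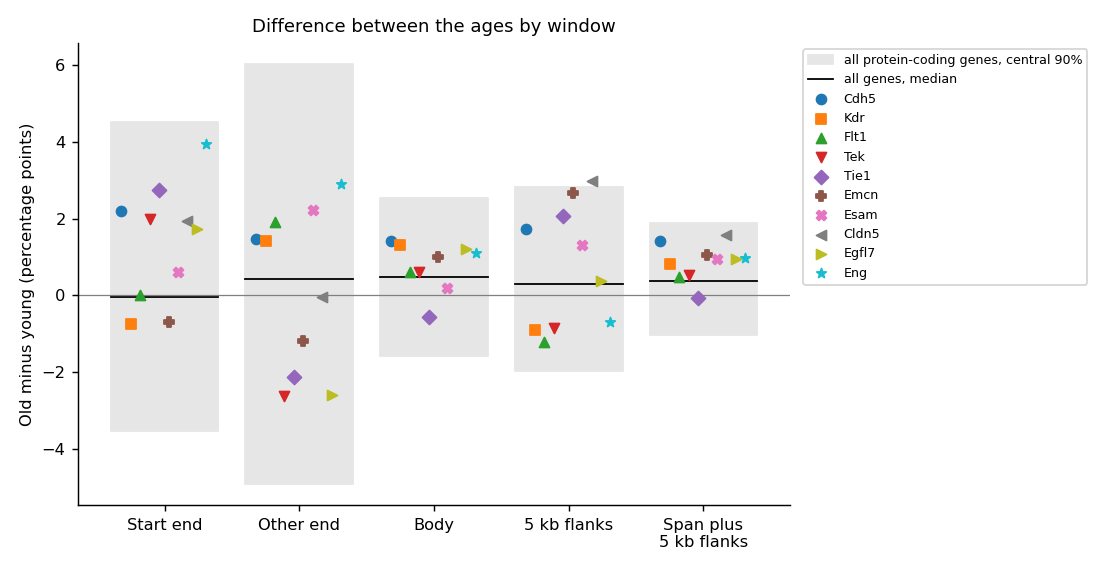
Difference in percentage points, old minus young (y axis), of each of the 10 genes in 5 windows (x axis), with the median (line) and the central 90% (grey band) of all protein-coding genes. The points lie inside the band except the flanks of Cldn5, at 2.98 points; without the 1 kb next to the span that value was 1.48 points.

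Within the spans, methylation dropped over short stretches that differed from gene to gene. A low stretch was at least 10 neighbouring positions with a mean of both ages under 20% and gaps of at most 500 bp. Flt1 held the longest, 3686 bp around its start with 408 positions at 5.18% in old and 5.33% in young cells. Kdr held 1845 bp at its start, at 5.17% in old and 5.63% in young cells. Tek held 3, of 1305 bp at its start (10.98% in old and 9.02% in young cells), from 6637 to 7688 bp past it (14.2% and 15.52%) and from 13401 to 13939 bp past it (6.30% and 7.25%). Tie1 and Emcn held none.

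The junction genes had low stretches inside their spans. Esam held 2, of 511 bp across its less methylated end with 16.3% in old and 18.1% in young cells, and of 1516 bp inside the gene with 6.63% and 6.96%. The only low stretch of Cdh5, at chr8:104127035-104127407, averaged 11.4% in old and 18.95% in young cells over 16 positions, the widest gap among the low stretches; 3 of the 16 had a p under 0.05 in the authors' deposited table and 0 passed the FDR. In Egfl7 the low stretch was the last start, 900 bp with 4.17% in old and 3.89% in young cells. Eng held a short one 33442 to 33823 bp past its start, at 10.54% in old and 14.7% in young cells with 0 of 16 positions under a p of 0.05. The other low stretches, 4 in Flt1 and 1 in Eng, differed by less than 3 points.

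**Figure D4:**
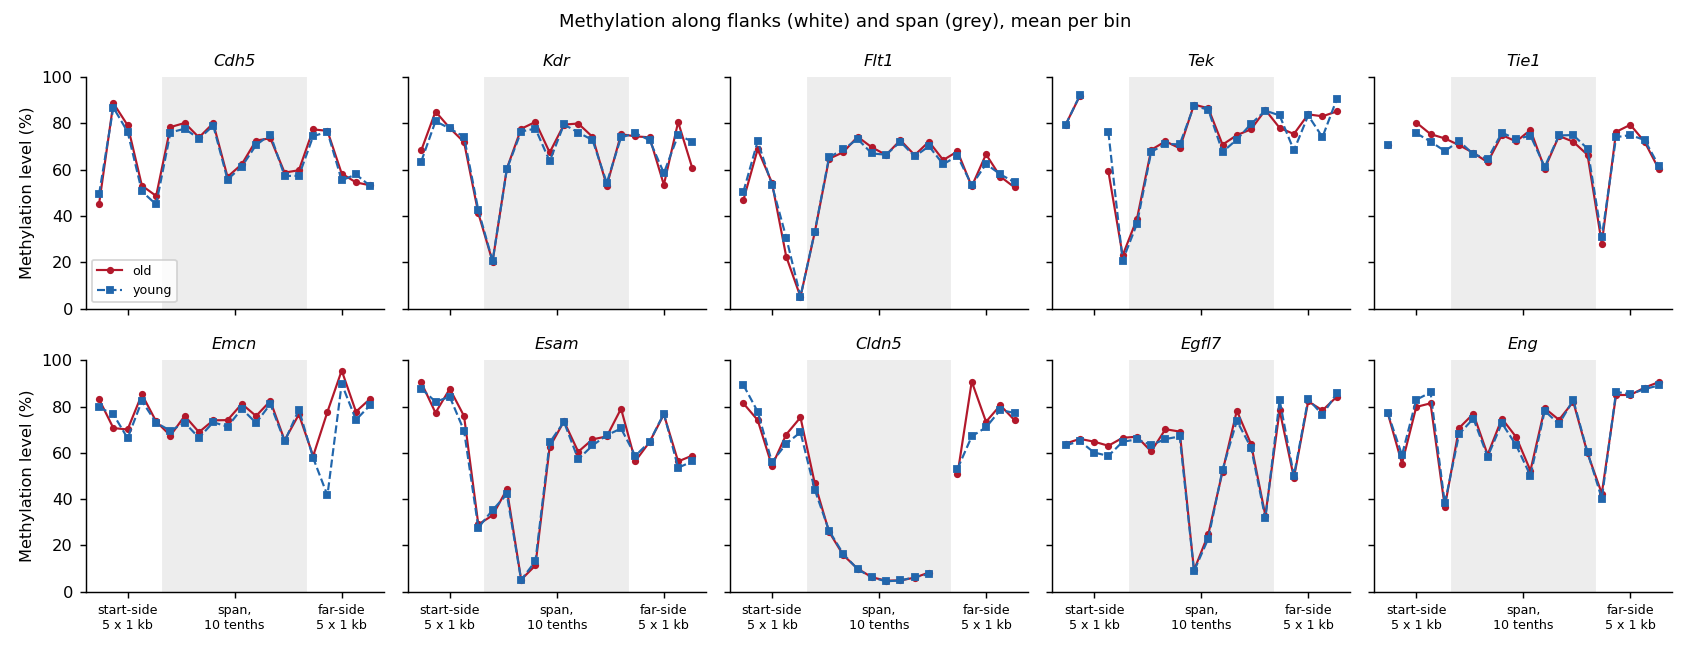
Mean methylation level in percent (y axis) over 5 bins of 1 kb in each flank (white) and 10 equal bins of the span (grey), with the start end at the left, for old (circles, full line) and young cells (squares, dashed line). For Cdh5 and Esam the less methylated end is at the left; gaps are bins with no position. The dips at the starts of Kdr, Flt1 and Tek, inside Esam and Egfl7 and along Cldn5 are present in both ages.

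Single positions passed the authors' test in 5 of the 10 genes. Of the 13371 positions, 18 (0.135%) passed an FDR of 0.05 by the authors' deposited table, beside 0.236% of all positions. In old cells 10 of the 18 were higher and 8 were lower, beside 0.132% and 0.105% of all positions. They lay in Tek (6), Emcn (6), Kdr (3), Cdh5 (2) and Cldn5 (1). Within 1000 bp of a gene end lay 0 of the 18. The share of called positions near the ends of all genes was not computed, so this 0 has no reference. Of all genes 46.2% held at least 1 such position in span and flanks. Flt1, which supplies 4777 of the 13371 positions, held 0, as did Tie1, Esam, Egfl7 and Eng. A p under 0.05 in the authors' deposited table was reached by 187 positions of the 10 genes, beside 2.61% of all positions, and a p under 0.01 by 61 (0.456%), beside 1.02%. Of the 10557 positions away from the most common dispersion values, 1 passed the FDR, beside 0.0258%. Combined by the Simes method, for which 1 small p is enough, 9 of 49 windows were called, beside 19.8% of all windows. Neighbours often shared a level, with 4781 stretches of equal level among the 13371 positions, so the number of positions is larger than the number of independent values.

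The widest of these differences was in Emcn. At chr3:137363087-137363088, 22.0 kb past the start, both strands of 1 CpG stood at 60.9% in old and 10.2% in young cells, with an FDR of 3.07e-15 on one strand and 0.0399 on the other in the authors' deposited table. It was the only CpG of the 10 genes called on both strands. Emcn also had a position 39.3 kb past the start at 61.7% in old and 90.2% in young cells (FDR 0.00106 in the authors' deposited table). Its other 3 positions were 8.41 to 12.04 points higher in old cells, with partner p-values of 0.287 to 0.361 on the opposite strand.

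In Tek, a pair of positions 117.6 kb and 117.8 kb past the start stood at 69.4% in old and 95.9% in young cells, with FDR values of 4.83e-07 and 6.45e-17 in the authors' deposited table. Their partners on the opposite strand had p-values of 0.0149 and 0.0013. Of its other 4 positions, 2 had differences of -14.0 and -17.8 points and 2 of 16.4 and 11.2 points, old minus young. None of these 4 had a partner p under 0.05. Kdr had positions at 47.7% in old and 69.9% in young cells, 7.84 kb past the start, and at 67.6% and 89.3%, 17.7 kb past it; the third Kdr position was 9.79 points higher in old cells.

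Cdh5 had 1 position inside its span, at chr8:104139550, with 78.9% in old and 42.7% in young cells (FDR 0.000131 in the authors' deposited table). The other Cdh5 position lay 4.07 kb beyond the less methylated end, at 20.6% in old and 42.1% in young cells. Cldn5 had 1 position, 2.73 kb past its start in the flank, at 90.8% in old and 67.1% in young cells (FDR 0.0393 in the authors' deposited table). Of the 18 calls, 17 carried the commonest phi of one age or both (0.0434 in old, 0.0438 in young), as 21.0% of all positions of the 10 genes did, and the part of this value in the calls was not tested. The opposite strand had the same levels at each of the 18 and a p under 0.05 at 8.

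No gene of the 10 held a run of at least 5 neighbouring positions with a p under 0.05, 1 sign and gaps of at most 100 bp, beside 14.4% of all genes. Among the genes with no call, the authors' deposited table gave as lowest p 0.00149 in Flt1 (27.0% in old and 41.7% in young cells), 0.003 in Eng (88.0% and 73.0%), 0.00767 in Esam (40.1% and 49.5%), 0.0113 in Tie1 (82.5% and 73.8%) and 0.0661 in Egfl7 (87.1% and 78.9%).

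**Figure D5:**
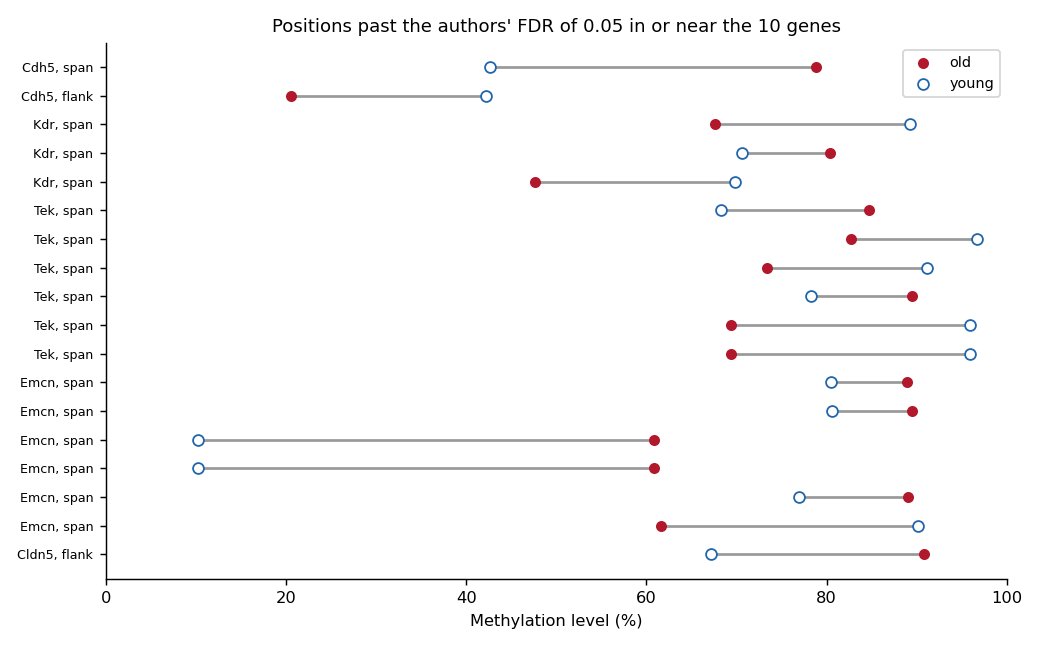
Methylation level in percent (x axis) of the 18 positions past the authors' FDR of 0.05 (rows, ordered by gene), filled circles for old and open circles for young cells, each 1 group value. The pair of Emcn rows at 60.9% in old and 10.2% in young cells is 1 CpG read on both strands.

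Other genes of the vascular system gave mixed signs. Among 41 further endothelial genes, 22 start windows (53.7%) were higher and 19 lower in old cells, beside 46.8% higher over all genes. Their median difference was 0.103 points, against -0.0436 points over all genes. Of the 41, 18 (43.9%) stood under 20%, beside 57.5% of all genes. By the window test 0 were called, beside 0% of 19852 start windows. The largest differences there were in Bmx (40.8% in old and 32.2% in young cells), Lyve1 (49.4% and 54.7%) and Ecscr (53.0% and 49.6%). For Lyve1 and Ecscr the less methylated end was used as the start. Of the 39248 positions in these genes 39 (0.0994%) passed the FDR in the authors' deposited table, beside 0.236% of all positions. In old cells 24 of the 39 were higher and 15 lower, beside 43411 higher and 34579 lower among the 77990 called over the genome. Pecam1, whose product was used to leave endothelial cells out of the sort, stood at 72.9% in old and 72.5% in young cells at its less methylated end.

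Of the 11 genes for ligands of these receptors, 4 start windows were higher and 7 lower in old cells, beside 46.8% higher over all genes. None was called, and the differences ran from -1 to 1.08 points. Vegfa stood at 3.05% in old and 3.34% in young cells, Vegfb at 5.42% and 5.39%, Vegfc at 3.57% and 3.86%, Vegfd at 28.3% and 29.3%, and Pgf at 28.0% and 27.3%. Angpt1, the ligand that activates the product of Tek, stood at 14.7% in old and 14.7% in young cells, Angpt2 at 25.4% and 24.3%, and Angpt4 at 35.3% and 35.8%. Of the ligands that bind the Eng product with their receptors, Gdf2 stood at 74.6% in old and 75.4% in young cells, Bmp10 at 72.4% and 71.7%, and Tgfb1 at 15.8% and 16.2%. The start levels of the ligand genes thus spread from unmethylated to methylated. For Angpt1 and Angpt2 the less methylated end was used as the start.

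The starts of genes of the sorted cells themselves were low. Of 10 muscle stem cell genes, among them Vcam1 at 10.4% in old and 12.03% in young cells, 9 start windows stood under 20%, as did 10 of 10 ubiquitous genes. Of 10 blood cell genes 1 did, with Ptprc, which encodes CD45, at 68.6% in old and 67.1% in young cells. Of 10 fibro-adipogenic and tendon genes 5 did, with Ly6a, which encodes Sca1, at 51.7% in old and 46.4% in young cells. Of all genes, 57.5% stood under 20%. With 3 of 10 under 20%, the endothelial identity genes lay between the blood and the fibro-adipogenic lists. No test of this order was made. For genes with no strand listed, among them Vcam1, Ly6a, Csf1r, Adgre1 and Lum, the less methylated end was used as the start. Their levels are thus the lower of both ends, and this choice can raise the counts under 20%. Among single genes of these lists, Calcr (8.51% in old and 9.95% in young cells) and Cdh15 (25.5% and 24.1%) differed most beside Vcam1. Values in the blood list were 62.8% in old and 60.2% in young cells for Csf1r and 64.7% and 62.1% for Adgre1. The largest differences were, in the fibro-adipogenic and tendon list Tnmd (42.5% and 31.8%), Lum (42.1% and 47.8%) and Ly6a, and in the ubiquitous list B2m (10.02% and 12.1%), Gapdh (5.32% and 6.45%) and Tbp (6.19% and 6.77%). None of the windows tested was called; Adgre1, with 8 positions, was not tested.

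Outside all lists, the genes whose levels over the 20 bins lay closest to the mean profile of the 10 endothelial genes in both ages were Hdac9, Grin2b, Rbm46, Cpne4 and Myo3b. Their mean absolute difference from it was 5.54 to 6.49 points, against a median of 17.7 points over 13774 genes with a value in every bin. The mean profile averages genes with unlike starts, at 52.6% in old and 52.2% in young cells in the first of 10 bins of the span, against 33.1% and 32.9% over all genes.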

How the data were processed

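Per the labels' protocols, 150 ng of DNA per library was amplified with 14 PCR cycles, and paired-end reads of 101 bp were sequenced to 115000000 to 200000000 reads. The submitters' processing notes name Trim Galore, Bismark, edgeR and the builds mm10 and GRCm38, with no version or role. The deposited levels are a fraction from 0 to 1 for each age group, equal over many neighbouring positions and printed here in percent. The deposited dispersion (phi) is a score per age group, and the authors' deposited p-value and FDR compare old with young per position.

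Deposited positions count from 0. Of 407620 CpGs in RefSeq promoters, 96.2% had a listed position 1 base before the C of the CpG, and 96.25% had one at the C. Only 10.1% had one at the G. Both strands are listed, so counting from 1 would place positions at the C and the G. For printing, 1 was added to each coordinate. Spans came from GRCm38.p6. Strand came from the promoter table for 17274 of 21501 genes; for 4227 the less methylated end was taken. Windows with at least 10 positions were given the median of the authors' p-values, multiplied by 2 and adjusted by Benjamini-Hochberg over all genes at 0.05. This procedure was run on simulated p-values only for shifts of whole windows far larger than any window difference of the 10 genes. That run does not tell whether differences of the size seen here would be called. Since values per library are not in the table, the planned logistic model was not run. Members, lists and rules were chosen with earlier results of these data known. All 10 genes, the sort antigens, all ligands, the 3 genes of each other list with the largest start difference, the 5 most alike genes and positions past the FDR, or otherwise that with the smallest p, are named. The values of 1 gene under this rule are not reported here. Low stretches and promoter comparisons were chosen after seeing the data. Computation used Python 3.11.15 with numpy 2.4.6 and pandas 2.3.3.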

Additional observations from a re-analysis of the deposited data

How the results depend on the processing

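Of 206 recomputed window differences, 198 kept their direction, 59 of these with a size changed by over 1.5 times, and none of those tested again was called (the subtraction has no test of its own); all 49 did with 1 value per CpG and all 49 when positions with the commonest phi were left out. Those that changed direction were, in 2000-bp windows, the start ends of Flt1 (-0.619 points) and Tek (-0.113 points) and the other end of Cldn5 (1.55 points); in 500-bp windows, the lower end of Esam (-1.10 points); and after subtracting the genome-wide difference of 0.473 points, the start of Flt1 (-0.450 points), the body of Esam (-0.279 points), the flanks of Egfl7 (-0.0855 points) and the span with flanks of Flt1 (-0.00289 points). The cause was not tested. The 18 positions past the FDR became 61 at an unadjusted p under 0.01 and 1 when positions with the commonest phi were left out, on one strand of the Emcn CpG, where 0.0258% of all positions pass. Combining positions by the Simes method called 9 of 49 windows (18.4%), in Cdh5, Kdr, Tek and Emcn, beside 19.8% of all windows; 1 called position is enough for such a call. With a minimum of 5 positions 0 were called. The difference in phi over span and flanks, old minus young, kept its sign in all 10 genes when positions with the commonest phi were left out. Taken as medians over positions it turned to -0.0004 in Cdh5, Flt1, Tie1, Emcn and Egfl7, whose means differed by 0.000429 to 0.00165, and was 0 in Esam. In Cdh5, Flt1, Tie1 and Emcn these medians were the commonest phi values themselves (0.0434 in old, 0.0438 in young), so -0.0004 there is the gap between those values. No paired analysis was possible because the table holds 1 value per age group; leaving out replicates and coverage minimums were not run for the same reason.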

Other observations

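Eng contains the microRNA gene Mir1954. Within 500 bp of its hairpin, 16 positions averaged 90.6% in old and 80.9% in young cells. Of these 16, 6 had a p under 0.05 in the authors' deposited table, beside 2.61% of all positions. The smallest p there was 0.003 in the authors' deposited table, and 0 passed the FDR. Neighbouring positions often share a level, so the 6 are not independent values. On the start side of Flt1, between 1 and 2 kb before the span, 37 positions averaged 22.5% in old and 30.7% in young cells. Just beyond the far end of Tie1, 17 positions within 1 kb averaged 28.1% in old and 30.8% in young cells, below every other bin of that gene. Between 1 and 2 kb beyond the far end of Emcn, the table lists 2 positions, at 77.7% in old and 41.7% in young cells. The stretches of this paragraph were picked by no rule set beforehand. Some other bins with few positions differed by more than that of Flt1, in either direction. Between 1 and 2 kb before Tek, 7 positions averaged 59.3% in old and 76.25% in young cells. Between 1 and 2 kb beyond Cldn5, 6 positions averaged 90.8% in old and 67.1% in young cells.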
